A study of Mus musculus with 10 samples.

Results

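The genes described here are 7 listed members of the Nat8 family of small acetyltransferases: Nat8, Nat8l and Nat8f1 to Nat8f5. They were followed on a mouse liver array, on which 13031 named genes had a usable probe. Nat8f6 and Nat8f7, which RefSeq also names, were not listed. All 7 listed genes had a probe, and 11 probes in total carried a current or an older name of these genes. The family was chosen by the measured fall of Nat8f5 in the same comparison of knockout with wild-type liver, so the differences of its members are given below as a description, with no test.

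NAT8 enzymes are bound to the membrane of the endoplasmic reticulum and transfer an acetyl group from acetyl-CoA. In the mercapturate pathway, glutathione S-transferases attach glutathione to a foreign compound, gamma-glutamyl transferases and dipeptidases trim the conjugate to a cysteine conjugate, and NAT8 acetylates that cysteine to give a mercapturic acid that leaves in urine or bile. Human relatives of Nat8 have also been described as acetylating lysines of proteins inside the endoplasmic reticulum, where the transporter SLC33A1 brings in acetyl-CoA. NAT8L makes N-acetylaspartate from aspartate, mainly in neurons. The mouse genes were first named camello-like, after a frog gene, and several copies stand side by side on 1 chromosome.

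Total RNA from liver of mice aged 1 year was profiled on 1-colour Agilent arrays with Cy3 label, each array carrying 1 sample. The 5 wild-type arrays (WT1 to WT5) and the 5 knockout arrays (KO1 to KO5) were both labelled C57BL/6, and the knockout mice lacked TAK1/TR4, a nuclear orphan receptor encoded by Nr2c2. Nothing in the labels states that the arrays come from different mice, and p-values therefore cover only the spread among these 10 arrays. The embryonic stem cell strain, the number of backcrosses and the length of chromosome 6 that accompanied the deleted gene are not given in the sources used here.

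The 75th percentile of probe intensity ran from 950.3 to 1344 on the 10 arrays, and 51.0% to 62.4% of probes were well above background. Slide 2 alone held both groups, with 1 wild-type array (WT5) and 3 knockout arrays (KO1, KO2 and KO3). The other wild-type arrays shared slide 1, while KO4 and KO5 each had a slide of their own. Pairs of wild-type arrays correlated at 0.988 to 0.994 across probes and pairs of knockout arrays at 0.966 to 0.987. At the Nr2c2 locus a cDNA probe (AK039370) exceeded background on 5 of 5 wild-type and 0 of 5 knockout arrays. By the bound defined below, the knockout signal was lower by at least 5.25-fold, and by at least 4.10-fold within slide 2. The files' 2 probes named Nr2c2 were instead higher in the knockout, by 0.44 ± 0.11 and 0.36 ± 0.13 (log2, ± SE), with overlapping groups. The remaining probe of the locus (AK077897) was nowhere well above background. Of 9 hepatocyte markers on the array 9 were above background on all 10 arrays.

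The files place 9 of the 11 probes on chromosome 6 of the mm7 build, between 85883597 and 85985313, a span of 102 kb that holds 6 of the 7 genes. The first Nr2c2 probe lies 6.20 Mb further along the same chromosome. In the order of the files' coordinates the genes are Nat8f3, Nat8f5, Nat8, Nat8f2, Nat8f4 and Nat8f1. The second Nat8f1 probe is placed on an unassembled piece (chr6_random, 7043303 to 7043362) and the Nat8l probe on chromosome 5 (33065537 to 33065596). Whether a probe lies in coding sequence or in a UTR was not determined, since no annotation of that build was used here.

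Copies of a gene family can share sequence, and the probes that carry the main difference are shown first, with the 1 pair that resembled each other. The probes of Nat8f5 (chromosome 6, 85892437 to 85892496) and Nat8f3 (85883597 to 85883656) are given in lower case throughout. For the Nat8f2 probe (85941468 to 85941527) and the Nat8f4 probe (85975074 to 85975133) the capitals mark their longest shared run, of 26 bases.
Nat8f5: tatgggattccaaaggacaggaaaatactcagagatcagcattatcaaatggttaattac
Nat8f3: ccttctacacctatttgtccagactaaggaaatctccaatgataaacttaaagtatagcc
Nat8f2: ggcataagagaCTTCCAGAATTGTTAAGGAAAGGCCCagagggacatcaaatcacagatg
Nat8f4: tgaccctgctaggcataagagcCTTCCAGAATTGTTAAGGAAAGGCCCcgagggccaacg
Aligned without gaps, the last 2 probes matched at 44 of 49 bases. No other pair of family probes shared a run of over 8 bases. Among all 41174 probes of the array no further probe shared a run of 20 bases with a family probe on either strand. The search covered probes only, so whether a family probe also matches other transcripts was not tested.

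Signals below are log2 values relative to the array's 75th percentile. A probe was kept when it was well above background on at least 4 of the 5 arrays of a group, which held for 23263 probes and for 10 of the 11 family probes. Of these 10 probes 8 were above background on all 10 arrays and 0 were saturated. The difference was negative for 8 and positive for 2, with a median of -0.34 against 0.01 over all kept probes. The median absolute difference was 0.38, against 0.16 over all kept probes. For 2 of the 10 probes, those of Nat8f5 and Nat8f3, every knockout array was below every wild-type array, and for 0 was every one above. Among all kept probes 5.09% lay wholly below and 3.86% wholly above. The family was chosen with the Nat8f5 value known, so nothing is read from these counts.

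**Figure D1:**
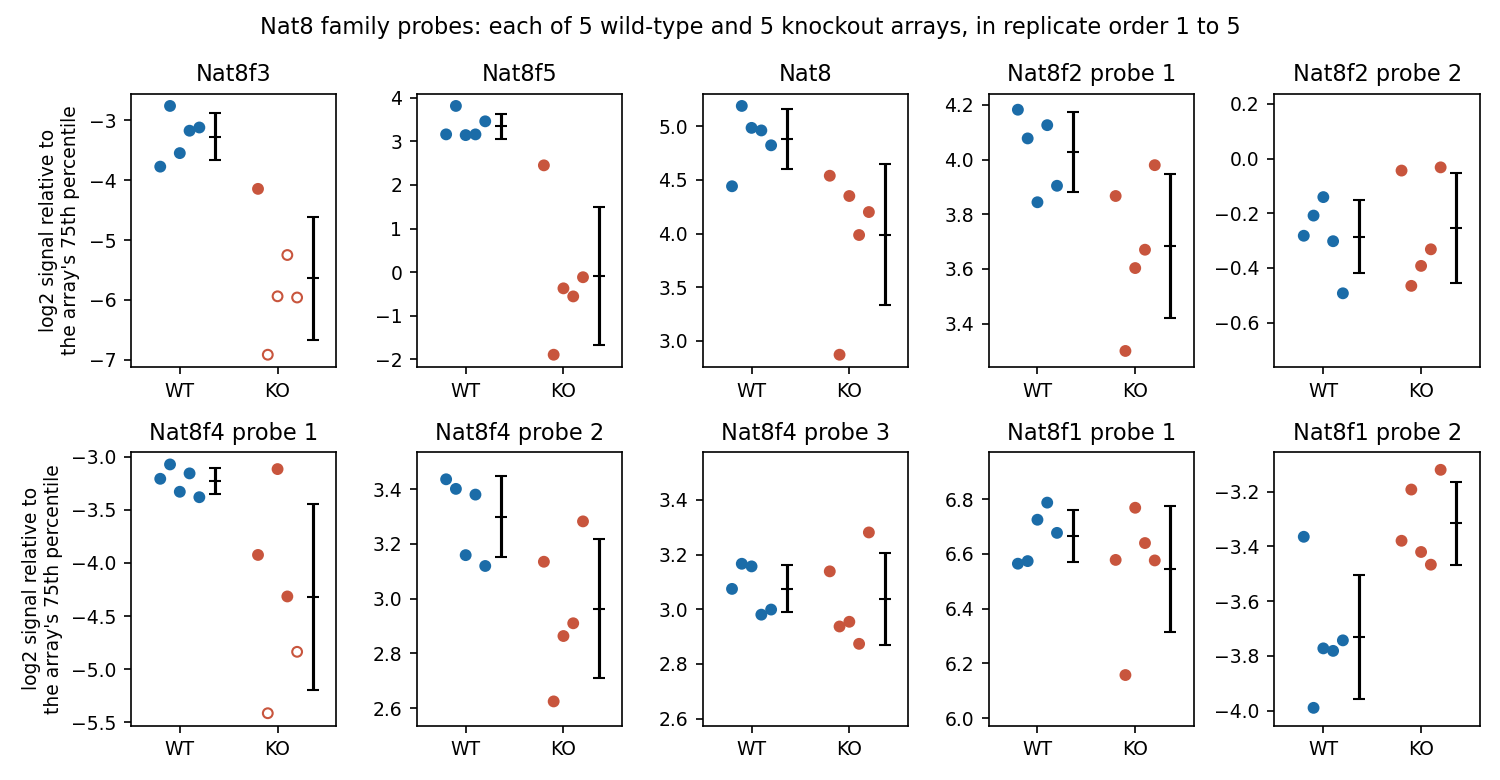
Log2 signal relative to the array's 75th percentile (y axis, its own range for each probe) on each wild-type (WT, blue) and knockout (KO, red) array, for the 10 kept Nat8 family probes; open points were not above background, and the black bar is the mean ± SD of 5 arrays. Nat8f5 and Nat8f3 have no overlap between groups, and only KO1 of the knockout arrays is above background for Nat8f3.

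Nat8f5, named Cml5 in the files, showed the largest difference of the family. Its signal was 3.16, 3.81, 3.14, 3.16 and 3.46 on WT1 to WT5, and 2.45, -1.89, -0.37, -0.56 and -0.12 on KO1 to KO5. The groups did not overlap, but KO1 stood near the wild-type arrays and KO2 was the lowest. The knockout mean was lower by 3.44 on the log2 scale (-3.44 ± 0.64, SE, n = 5 per group), a 10.9-fold difference, and within slide 2 the difference was -3.40. Because only slide 2 held both groups, a fit with slide as a fixed block gave the within-slide values for this and every other family probe. The SD was 1.58 in the knockout and 0.29 in wild type. Without KO1 the difference was -4.08. Of the 23263 kept probes 14, this one included, were at or below its difference.

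Nat8f3, named Cml3 in the files, was the second probe without overlap. It was dim: -3.77, -2.76, -3.55, -3.17 and -3.12 on WT1 to WT5, and -4.15, -6.92, -5.94, -5.25 and -5.96 on KO1 to KO5. Every wild-type array but only KO1 among the knockout arrays was above background, so the fold is a bound. The knockout was at least 2.30-fold lower, and at least 2.09-fold lower within slide 2. A bound, given as a fold of at least some value, sets the wild-type mean against the knockout mean. Each array not above background is first raised, if lower, to the lowest signal of any probe well above background on it. A probe can lie above that level and still not be above background, so the bound holds only under this rule and scaling. With normexp background correction and quantile normalisation the fitted Nat8f3 difference was -0.70, smaller than this bound (-1.20 on the log2 scale). The measured means were -3.27 ± 0.39 and -5.64 ± 1.03 (SD, n = 5). RefSeq lists Cml3 as an older name of Nat8f3, Nat8f6 and Nat8f7, and the probe was assigned to Nat8f3 by its listed transcript accession.

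Nat8, the gene that gives the family its name, was measured by a probe named Cml4 in the files (85905520 to 85905579). Its signal was 4.44, 5.19, 4.98, 4.96 and 4.82 in wild type and 4.54, 2.87, 4.35, 3.99 and 4.20 in knockout. The groups overlapped, since KO1 exceeded WT1, and KO2 was again the lowest array. The difference was -0.89 ± 0.29, 1.85-fold, and -0.90 within slide 2. Without KO2 it was -0.61. Leaving out WT1 removed the overlap.

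Nat8f2 and Nat8f4 were each measured at more than 1 place, and the probes of each gene did not move alike. The Nat8f2 probe shown above gave 4.18, 4.08, 3.84, 4.13 and 3.90 in wild type and 3.87, 3.30, 3.60, 3.67 and 3.98 in knockout, a difference of -0.34 ± 0.13 with overlapping groups. The second Nat8f2 probe, listed over 170 bases from 85943993 to 85944162, differed by 0.03 ± 0.11. The Nat8f4 probe shown above, which shares 26 bases with the first, gave 3.44, 3.40, 3.16, 3.38 and 3.12 in wild type and 3.13, 2.62, 2.86, 2.91 and 3.28 in knockout. Its difference was -0.34 ± 0.13, close to that of the Nat8f2 probe it resembles. Which of the transcripts each of these probes binds was not tested.

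The other Nat8f4 probes, named 1700019G17Rik in the files, lay on either side of that one. The probe at 85976454 to 85976513 differed by -0.04 ± 0.09. The probe listed at 85974113 to 85974136 was dim, at -3.21, -3.07, -3.33, -3.16 and -3.38 in wild type and -3.92, -5.42, -3.12, -4.32 and -4.84 in knockout. It exceeded background on 5 of 5 wild-type and 3 of 5 knockout arrays, and the knockout was at least 1.91-fold lower, or at least 1.42-fold within slide 2. KO3 lay among the wild-type arrays, and KO2 and KO5 were not above background. A further probe, which carries no gene symbol but the same Ensembl transcript (ENSMUST00000095757), differed by -0.32 ± 0.15. The 4 probes of this transcript thus ranged from -0.04 to the bound of the dim probe.

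Nat8f1 was above background on every array at both of its probes, which did not move alike. The probe at 85985253 to 85985313 gave 6.56, 6.57, 6.72, 6.79 and 6.68 in wild type and 6.58, 6.16, 6.77, 6.64 and 6.58 in knockout. Its difference was -0.12 ± 0.11, and -0.02 without KO2. The chr6_random probe was at -3.36, -3.99, -3.77, -3.78 and -3.74 in wild type and -3.38, -3.19, -3.42, -3.47 and -3.12 in knockout (0.41 ± 0.12). Only WT1 of the wild-type arrays reached the knockout range of this second probe. Nat8l, the N-acetylaspartate synthase gene, was nowhere well above background among the 10 arrays and is given no fold. Within slide 2 the differences were -0.18 and 0.41 for the Nat8f1 probes, -0.31 and 0.19 for the Nat8f2 probes, and -0.25 and 0.01 for the brighter Nat8f4 probes.

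**Figure D2:**
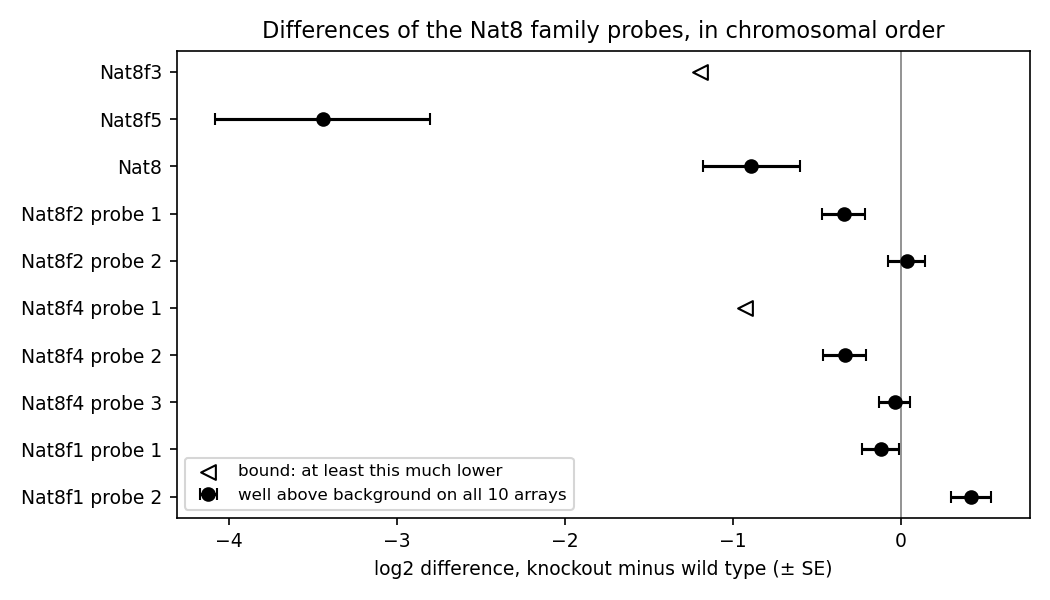
Log2 difference, knockout minus wild type, ± SE (x axis) for the 10 kept Nat8 family probes in chromosomal order, with the chr6_random probe of Nat8f1 last. Filled points were above background on all 10 arrays. Open arrowheads mark bounds under the rule given in the text, at -1.20 for Nat8f3 and -0.93 for the dim Nat8f4 probe. Measured differences run from -3.44 for Nat8f5 to 0.41 for the second Nat8f1 probe.

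The knockout arrays were not alike for these genes. As a percentage of the wild-type mean, Nat8f5 signal was 53.7% on KO1, 2.7% on KO2, 7.6% on KO3, 6.7% on KO4 and 9.1% on KO5. Nat8f3 signal was 54.7% on KO1 and not above background on the other knockout arrays, which have no order for this probe. For Nat8 the percentages were 79.0%, 24.9%, 69.3%, 53.8% and 62.5%. KO1 was the knockout array nearest to wild type for Nat8f5 and Nat8 and KO2 the farthest. Among 691 probes called lower in the knockout KO1 was the highest knockout array for 38.1% and KO3 for 27.4%. KO2 was the lowest for 46.2% of them. How often KO1 was highest and KO2 lowest for the same probe was not counted. KO1 to KO3 shared slide 2, and the AK039370 probe was not above background on any of the 5 knockout arrays. The cause of this spread was not tested.

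Probes near the family on chromosome 6 were compared with limma over all kept probes, with Benjamini-Hochberg adjustment, and are called at an adjusted p under 0.05. Over the whole array 2.98% of probes were called lower and 2.06% higher. Within 1 Mb of the family's probes 5 of 41 other kept probes were lower and 1 was higher, 14.6%. Both probes of Anxa4 are among the 5. Between that window and Nr2c2 4 of 84 were lower and 2 higher, 7.14%. Within 20 Mb of Nr2c2, a window that includes both windows above, 14 of 270 were lower and 7 higher, 7.78%. In the rest of the chromosome 29 of 905 were lower and 39 higher, 7.51%. Among chromosomes with at least 200 kept probes the share called ran from 3.34% on chromosome 18 to 7.83% on chromosome 6. Unlike the windows, that last share includes the family's probes and those of the Nr2c2 locus, so nothing is read from its rank. These counts rest on single arrays. The first window held 3 called probes without WT2 and 10 without KO1, and with slide as a fixed block or within slide 2 it held 0.

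The nearest kept genes on either side of the family did not pass the test. Tprkb, which encodes a binding partner of the kinase Tp53rk, lies 17.1 kb beyond the last family probe and differed by 0.09 ± 0.15 (adjusted p = 0.76, limma). Cct7, a subunit gene of the chaperonin that folds actin and tubulin, lies 386 kb before the first and differed by 0.16 ± 0.06 (adjusted p = 0.15). For Cct7 every knockout array was above every wild-type array, as for 3.86% of all kept probes. A probe of TC1471783, a transcript without a gene symbol listed just beyond Tprkb, rose by 0.61 (adjusted p = 0.040). The gene symbols closest to the family with a called probe were Pcyox1, Tia1, Sfxn5 and Anxa4.

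Tia1, which encodes an RNA-binding protein of stress granules, had a probe 511 kb after the family (86496449) that, like Nat8f3, was dim and above background on 1 knockout array. Its signal was -2.48, -2.50, -2.48, -2.84 and -2.72 in wild type and -3.29, -6.80, -5.78, -6.44 and -6.86 in knockout. That array was KO1, and the knockout was at least 3.24-fold lower, or at least 2.26-fold within slide 2 (adjusted p = 0.018, limma; 0.053 without WT2). The other 3 kept Tia1 probes differed by 0.03, -0.04 and 0.12 (adjusted p = 0.85, 0.84 and 0.42). A single Tia1 probe thus differed while the rest of the gene's probes did not pass. Over the alternatives run, the fitted difference of that probe was as small as -0.88, smaller than its bound (-1.70 on the log2 scale).

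Sfxn5, the gene of a mitochondrial membrane protein 641 kb before the family, fell by 0.91 on the log2 scale (-0.91 ± 0.15, adjusted p = 0.011, limma). Its signal was 2.31, 2.26, 2.23, 2.33 and 2.28 in wild type and 1.87, 0.88, 1.41, 1.32 and 1.37 in knockout. The groups did not overlap, and KO1 was again nearest to wild type and KO2 the lowest. Its other kept probe differed by -0.74 (adjusted p = 0.052) and did not pass. Anxa4, a calcium-dependent membrane-binding protein gene, fell at both of its probes (-0.81 ± 0.09, adjusted p = 0.0019; -0.55 ± 0.09, adjusted p = 0.0094). Pcyox1, which breaks down prenylcysteines, fell by 0.63 (adjusted p = 0.039), and removing any 1 of 8 arrays ended that call, with adjusted p up to 0.097.

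Further out, Chchd6, a gene of the mitochondrial contact site complex 3473 kb after the family, fell by 0.95 (-0.95 ± 0.09, adjusted p = 0.00058, limma). Its knockout signals were 1.50, 1.43, 1.42, 1.09 and 1.28, so KO1 and KO2 did not stand apart from the other arrays there. Dysf, the dysferlin gene, was the only one of the named called neighbours with a gene symbol that rose (0.80 ± 0.15, adjusted p = 0.020, limma). Its adjusted p was 0.061 without WT2 and 0.051 without WT4. Of the 3 Tex261 probes 2 fell, by 0.51 (lost without any 1 of 9 arrays, adjusted p up to 0.115) and 0.58, and the third differed by -0.04 (adjusted p = 0.88). Rab43, Mgll and Eva1a each had a probe that fell, by 0.48, 0.53 and 0.82, and these calls were lost without any 1 of 5, 9 and 8 arrays. None of the 3 other Rab43 probes passed (adjusted p 0.088 to 0.25), nor did the other Mgll probe (0.073). Within slide 2 the called probes of Sfxn5, Chchd6 and Dysf differed by -0.89, -0.88 and 0.74, with no call there.

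**Figure D3:**
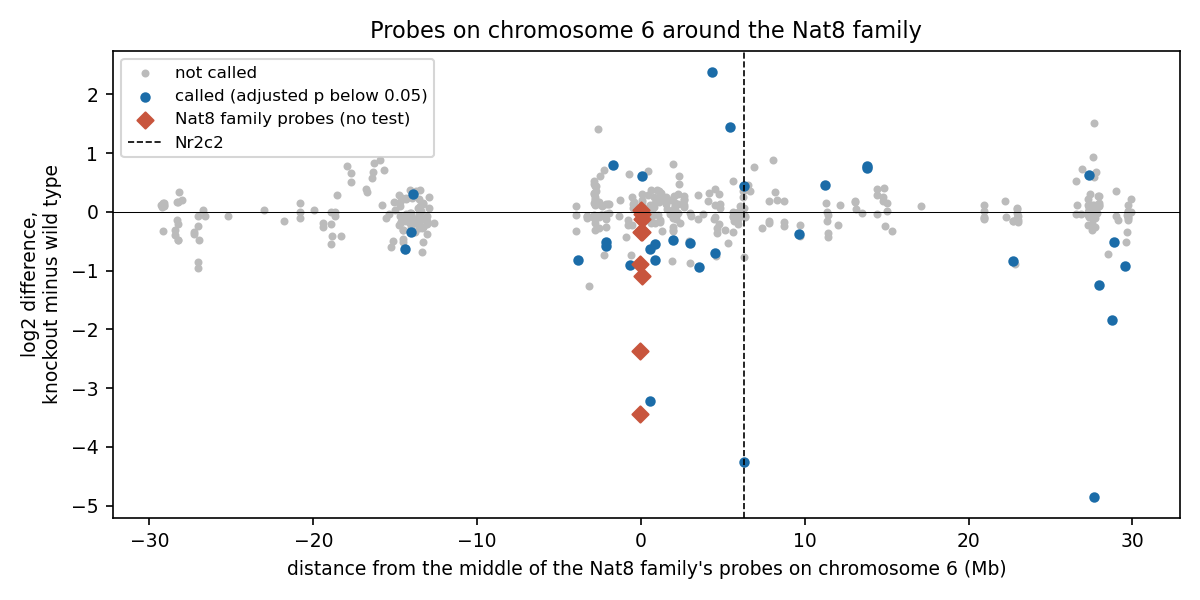
Log2 difference, knockout minus wild type (y axis), of every kept chromosome 6 probe within 30 Mb of the middle of the family's probes (x axis, distance in Mb). Grey points were not called, blue points had an adjusted p under 0.05, red diamonds are Nat8 family probes, and values of dim probes include arrays at background. The dashed line marks Nr2c2; lower and higher calls stand on both sides of the family.

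**Figure D4:**
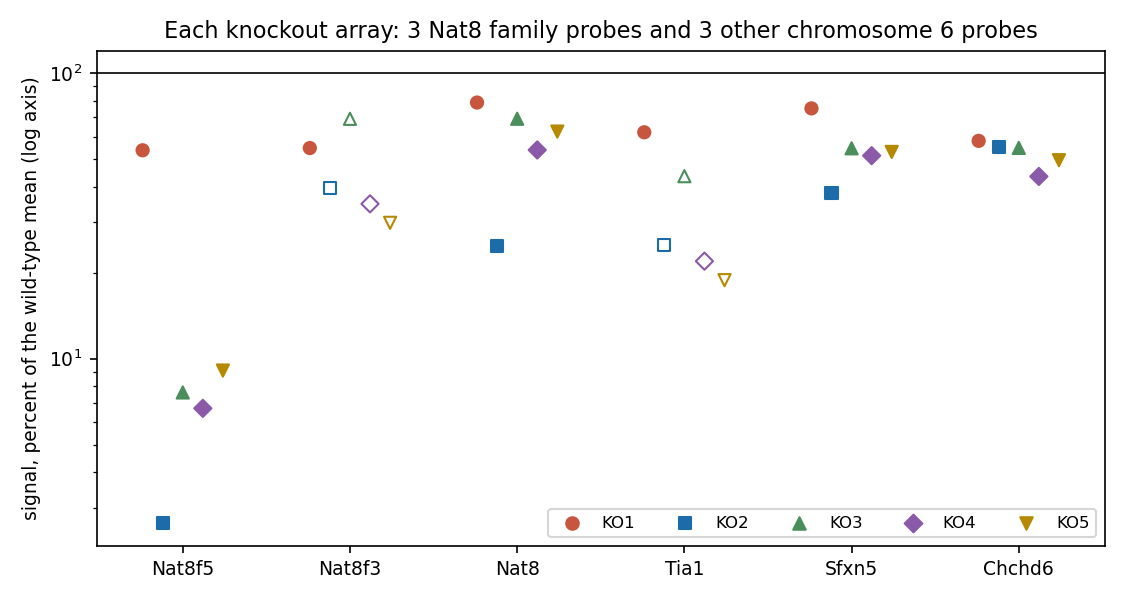
Signal on each of the 5 knockout arrays as a percentage of the wild-type mean (y axis, log scale; the line marks the wild-type mean) for Nat8f5, Nat8f3, Nat8 and, from the same chromosome, the called probes of Tia1, Sfxn5 and Chchd6. Open symbols were not above background and are drawn at the lowest signal of any probe well above background on that array. KO1 lies apart from the other knockout arrays for Nat8f5 and is the only filled symbol for Nat8f3 and Tia1.

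Sequence before the annotated start was compared in RefSeq promoters (GRCm38.p6), which hold 8 entries for 6 of the genes. All 6 genes lie on the minus strand. Nat8f3 and Nat8 share the longest stretch. The 156 bases below, from chr6:85765745-85765900 for Nat8f3 and chr6:85836952-85837107 for Nat8, match at 154 positions, and the capitals mark the longest identical run, of 88 bases.
Nat8f3: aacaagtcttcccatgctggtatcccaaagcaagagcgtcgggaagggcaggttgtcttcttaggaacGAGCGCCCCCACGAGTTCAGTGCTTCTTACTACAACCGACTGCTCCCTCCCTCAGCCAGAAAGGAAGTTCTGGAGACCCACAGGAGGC
Nat8: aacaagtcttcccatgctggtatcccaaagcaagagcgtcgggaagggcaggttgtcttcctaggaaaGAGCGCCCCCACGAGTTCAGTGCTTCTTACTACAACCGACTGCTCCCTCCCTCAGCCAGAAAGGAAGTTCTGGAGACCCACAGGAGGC
The run ends 1 base before the annotated start of Nat8f3 and 95 bases before that of Nat8. The next longest run shared by 2 entries was 13 bases, between Nat8f5 and Nat8f2. The other Nat8 entry shared a run of only 8 bases with Nat8f3, and Nat8f5, with the largest difference of the family, a run of 9. The knockout signals of these genes, given above, were lower by at least 2.30-fold for Nat8f3 and by 1.85-fold for Nat8. A link between the shared stretch and these signals was not tested.

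AGGTCA is the half-site that many nuclear receptors, TR4 among them, bind as a direct repeat. It was searched on both strands of the 250 bases before the start and found in 3 of 8 family entries, 1 of Nat8f5 and 2 of Nat8f4, against 14.0% of 32851 RefSeq promoters. The direct repeat of this half-site with 1 free base between the copies was found in 0 family entries (0.0335% of promoters), TTCNNNGAA, the form bound by STAT proteins, in 0 (7.02%), and the palindrome bound by HNF1 in 0 (0.00913%). In Nat8f5 the half-site lies on the strand opposite to the gene, 84 bases before the start. The 60 bases around it (chr6:85821024-85821083, minus strand) are set beside the best-matching 60 bases of Nat8f2 (chr6:85869147-85869206, minus strand), whose probes differed by -0.34 and 0.03. Capitals mark the half-site and the bases aligned with it.
Nat8f5: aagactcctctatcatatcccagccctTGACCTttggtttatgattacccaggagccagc
Nat8f2: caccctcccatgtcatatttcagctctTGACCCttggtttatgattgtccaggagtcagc
The stretches match at 47 of 60 bases, and 1 of the 13 differences, T33C counted from the 5′ end of the Nat8f5 stretch, falls in the half-site. A match of letters is a description and does not show binding. The half-site was also present upstream of Nat8f4, whose 3 probes ranged from -0.04 to the bound of 1.91-fold.

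Genes of the mercapturate pathway, in which Nat8 acts last, were taken from a list of 44. Of 39 tested genes 7 fell and 0 rose, with a median difference of -0.31 against 0.01 over all genes. Over all 13031 genes 3.46% were called lower and 2.27% higher. Glutathione S-transferase genes make up much of the list, and all of the 7 that fell except Ggt6 are of that kind. The counts therefore do not describe the other steps of the pathway. Gstt3, a theta-class glutathione S-transferase gene, had the smallest adjusted p. It fell by 1.23 (-1.23 ± 0.19, adjusted p = 0.0077, limma), from 5.27 to 5.69 in wild type to 3.60 to 4.55 in knockout, and was called without each array in turn (-0.83 within slide 2). Gstt2, of the same class, fell by 0.85 (adjusted p = 0.024; lost without any 1 of 5 arrays) and Gstk1, the mitochondrial and peroxisomal kappa-class enzyme, by 0.54 (adjusted p = 0.018; 0.059 without WT2). The other 4 that fell were Ggt6, Gstt1, Gstz1 and Mgst3, which were lost without any 1 of 6, 6, 7 and 9 arrays. Without WT2 only 1 gene of the list was called, and with slide as a fixed block 0.

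The enzymes on either side of the NAT8 step did not pass the test. Dpep1, the dipeptidase that precedes it, differed by 0.78 ± 0.23 (adjusted p = 0.083, limma; adjusted p = 0.0085 without KO1), and by 0.27 within slide 2. Acy1 and Acy3, the aminoacylases that remove the acetyl group again, differed by -0.35 ± 0.20 (adjusted p = 0.32) and -0.32 ± 0.22 (adjusted p = 0.41), and by -0.49 and 0.06 within slide 2, where Acy3 changed sign. KO2 was the lowest array for both, at -0.20 and 2.56, as it was for Nat8, and without it they differed by -0.15 and -0.12. Ggt1 was not tested.

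Over all 13031 genes 3.46% were called lower and 2.27% higher, with a median difference of 0.01. At those shares 0 calls in a list of 9 or 6 genes is not unusual. The share of all genes at an unadjusted p under 0.05 is not given, so nothing is read from such counts below. None of the 9 tested genes of N-acetylaspartate metabolism passed limma's test (2 at an unadjusted p under 0.05, median -0.36). Aspa, which cleaves N-acetylaspartate, differed by -0.55 ± 0.25 (adjusted p = 0.23), and by -0.28 without KO2. None of 6 genes of lysine acetylation in the endoplasmic reticulum passed (1 at an unadjusted p under 0.05; median 0.03), and Slc33a1, the acetyl-CoA transporter gene, differed by -0.09 ± 0.13 (adjusted p = 0.71). Of 15 other acyltransferase genes 2 fell and 0 rose (median -0.07). Crat, carnitine acetyltransferase, fell by 1.04 (-1.04 ± 0.16, adjusted p = 0.0083) and was called without each array. Nat1, an arylamine N-acetyltransferase, fell by 0.88 (adjusted p = 0.038; lost without any 1 of 8 arrays). Nags, N-acetylglutamate synthase, differed by -0.07 ± 0.07 (adjusted p = 0.57).

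Likeness to Nat8f5 was measured as Pearson's r of the log2 signals over the 10 arrays, among 23166 probes with a value on every array. The arrays share slides, and the difference between groups enters this r, so it is a description. Nat8f3 reached 0.98 and Nat8 0.88 (Spearman's rho 0.92 and 0.84), against a 95th percentile of r of 0.82 over all probes. Without KO2 and KO4, the arrays farthest from the median of Nat8f5, r was 0.99 for Nat8f3 and 0.80 for Nat8 over 8 arrays. The Nat8f2 and Nat8f4 probes that share 26 bases reached 0.81 and 0.80, and the other family probes lay between -0.75 and 0.77. Among the gene symbols with the highest r were Dmd (0.99), Sfxn5, Ube3c and Ppm1b (each of the last 3 at 0.98). After each group's mean was removed, Sfr1, Mapkap1, Dmd, Hnrnpab and Ube3c were the most alike (0.96 to 0.97), Nat8f3 reached 0.90 and Nat8 0.76 (Spearman's rho 0.56 and 0.48), and the 95th percentile of r was 0.74. The Nat8f3 values in both measures include 4 knockout arrays on which the probe was not above background. KO1 and KO2 lie above and below the other knockout arrays for Nat8f5 itself.

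Bulk liver RNA cannot tell apart fewer cells of a type and less RNA per cell. The 10 kidney markers were followed as well, because kidney also expresses Nat8 family genes. Their summed level, as the mean log2 signal, was -5.29 to -4.74 in wild type and -4.70 to -4.19 in knockout, without overlap and in the direction opposite to Nat8f5. Only 1 of the 10 was above background on all 10 arrays. Slc34a1 and Slc12a3, defining markers of kidney tubule, were not above background on any array, and Aqp2 was the one found on all. Lrp2 exceeded background on 5 wild-type and 4 knockout arrays, Slc22a6 on 4 and 4, and Umod on 1 and 3. Only Aqp2, Lrp2, Slc22a6 and Kap had enough signal to be tested. Aqp2, Lrp2 and Slc22a6 did not pass (adjusted p = 0.18, 0.73 and 0.96, limma). The 1 marker called was Kap, at least 4.87-fold higher in the knockout (adjusted p = 0.020, limma), which exceeded background on 2 wild-type arrays and all 5 knockout arrays. Without Kap the mean of the other 9 was -5.19 to -4.60 in wild type and -5.05 to -4.39 in knockout, and the groups overlapped. None of the 9 hepatocyte markers was called, and their mean was 6.42 to 6.46 in wild type and 6.06 to 6.53 in knockout. The part of these markers in the Nat8 family values was not tested.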

How the data were processed

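The authors scanned 1-colour arrays and deposited intensity values of Agilent Feature Extraction (version 9.5, per the submitters' processing notes), background-subtracted and detrended within each array, per the file headers. Other deposited columns are that program's flags. The deposited series table held the same intensities (largest difference 0; column medians 80.0 to 107.6, linear scale, no centring).

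The intensities were taken to log2, each array's 75th percentile was subtracted, outlier-flagged spots were left out and repeat spots of a probe were averaged. Probes were named through RefSeq by accession (23075), current symbol (6582) or older symbol (3077), and 8440 kept the name in the files. Groups came from the sample labels. limma 3.58.1 in R 4.3.3 (lmFit, eBayes; genotype only; two-sided) was fitted to all 23263 kept probes and tested on simulated data. Genes of a list were represented by their brightest probe.

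Members, lists and alternatives were chosen with earlier results of these data known. Named were all probes of the family and of the Nr2c2 locus, up to 3 called genes per list and direction with the smallest p, 7 genes of steps next to the family's, up to 12 called neighbours with a symbol, the nearest kept gene on each side, and the 5 symbols most like Nat8f5 by each measure, of which 1 is not reported here. TC1471783 and the further pathway genes named in counts were chosen after their values were seen. The number of arrays limits the precision.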

Additional observations from a re-analysis of the deposited data

Results flagged for a closer look

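In 13 of 102 groups of 5 arrays 1 array stood far from the other 4 (Dixon's test at its 95% critical value for 5 values, which chance passes in about 1 group in 20). None of the 13 was a Nat8 family probe. KO2 was the low array for 6 genes: Acy1 (-0.20, others 0.64 to 0.97), Acy3 (2.56, others 3.47 to 3.62), Gstt1 (1.80, others 2.46 to 2.71), Gstz1 (5.25, others 5.67 to 5.73), Aspa (-0.38, others 0.90 to 1.08) and Nags (4.74, others 4.93 to 4.98). KO1 was low for Dpep1 (-3.66, others -2.71 to -2.47). Among wild-type arrays WT1 was high for AK039370 (-1.62, others -2.45 to -2.21) and Ggt6 (3.75, others 3.67 to 3.69) and low for Slc33a1 (0.98, others 1.41 to 1.48), WT5 was low for Acy3 (3.18, others 3.77 to 3.85) and WT2 high for Dmd (-0.40, others -0.51 to -0.48). KO5 was high for Slc33a1 (1.62, others 1.14 to 1.27).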

How the results depend on the processing

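None of the called neighbours with a gene symbol or called pathway genes changed direction under the alternatives run. Fitted differences of the 10 family probes stayed within 1 SD of their value under all alternatives except normexp background correction with quantile normalisation. There the second Nat8f1 probe was at 0.15, Nat8f3 at -0.70 and the dim Nat8f4 probe at -0.36. For the 2 dim probes these differences include arrays at background, and both values are smaller than the bounds of -1.20 and -0.93. Leaving out 1 array at a time gave -4.08 to -2.99 for Nat8f5 and -1.03 to -0.61 for Nat8, and bounds of 2.09-fold to 2.58-fold for Nat8f3. The second Nat8f2 probe ran from -0.07 to 0.19 and the third Nat8f4 probe from -0.14 to 0.07 over the other alternatives, so neither has a settled sign. Family probes with no overlap numbered 1 without scaling, 1 among probes above background on all 10 arrays, 4 within slide 2, and 2 to 3 with an array left out. Within slide 2 only 1 wild-type array is set against 3 knockout arrays, so a lack of overlap is easily met there. The shares over all probes under these settings are not given, so nothing is read from these counts.

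Counts of called probes depended on nearly every choice. Main counts were 694 lower and 479 higher. Without scaling, which moves the median of all probes to 0.12, 196 were lower, and the split turned to more higher than lower. Median scaling left 205 higher. Without the filter 195 were lower and 93 higher, with slide as a fixed block 29 and 17, within slide 2 0 and 2, and with slide as a random block 1061 and 802. Leaving out 1 array gave 221 to 889 lower and 127 to 689 higher. The replicate numbers do not pair the samples. After each group's mean was removed, the deviations of same-numbered arrays correlated at -0.20 to 0.05. No knockout array's deviations correlated best with those of its own number. A replicate block left 139 lower and 82 higher.

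Mercapturate genes called lower were 1 without scaling, 1 without the filter, 0 with the slide block, 0 within slide 2, 2 with the replicate block, and 1 to 8 with an array left out. Those called higher were 1 without scaling, 1 with the random block and 0 to 1 with an array left out. N-acetylaspartate genes called lower were 1 with the random block and 0 to 1 with an array left out, and lysine acetylation genes called higher 0 to 1. Other acyltransferases called lower were 1 without scaling, 1 without the filter, 0 with the slide block, 0 within slide 2, 1 with the replicate block and 1 to 2 with an array left out. Called probes within 1 Mb of the family, between that window and Nr2c2, within 20 Mb of Nr2c2 and in the rest of chromosome 6 were 3, 3, 9 and 18 without the filter, 0, 0, 0 and 1 with the slide block, 0 in each within slide 2, and 2, 3, 5 and 15 with the replicate block. Without scaling the last 3 windows held 3, 13 and 38, and with the random block the third held 35. With an array left out the ranges were 3 to 10, 3 to 7, 10 to 35 and 23 to 83. The causes were not tested. WT5 is the only wild-type array on slide 2, so the slide block and slide 2 compare few arrays.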
